A study of Mus musculus with 4 samples.

Results

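The Toll-like receptors described here are 10 genes of the count table, Tlr1, Tlr2, Tlr3, Tlr4, Tlr5, Tlr6, Tlr7, Tlr8, Tlr9 and Tlr13, chosen by name and matched by their Ensembl identifiers among 55487 genes. All 10 passed the filter on low counts and were among the 13496 genes tested. Poly(A) RNA was sequenced from myeloid cells that had been sorted out of mouse liver, with 2 libraries from LysM-Cre IL10R fl/fl animals and 2 from LysM-Cre IL10R wt/wt animals. Both groups carry LysM-Cre, in which the lysozyme 2 locus drives Cre recombinase in macrophages, monocytes and granulocytes, and in fl/fl mice Cre can remove the floxed part of an interleukin-10 (IL-10) receptor gene. The labels do not name the receptor chain, the age or sex of the mice, or whether each library is a different animal, so the p-values measure the spread between these libraries. By their sex-linked transcripts the fl/fl libraries came from different animals, while the spread between the wt/wt libraries may be technical. Cells were gated as positive for CD45 and CD11b and negative for CD3 and CD11c.

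Toll-like receptors are membrane proteins that bind conserved microbial molecules through leucine-rich repeats and signal through an intracellular TIR domain. TLR1, TLR2, TLR4, TLR5 and TLR6 act mainly at the cell surface, where they recognise bacterial lipids and flagellin, and TLR3, TLR7, TLR8, TLR9 and TLR13 bind nucleic acids in endosomes. Except for TLR3, which uses the adaptor TRIF, these receptors signal through MyD88 to NF-kappa-B and inflammatory cytokine genes, an output that IL-10 is known to restrain in macrophages.

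Total counts were 17750343 and 17154042 in fl/fl libraries 1 and 2, and 22694136 and 26441014 in wt/wt libraries 1 and 2, and 1 read was worth between 0.0368 and 0.0582 CPM (counts scaled to a common library size with TMM factors, which correct for library composition). Il10ra, the ligand-binding receptor chain, held 69.3 and 14.8 CPM in fl/fl, against 1111 and 993 CPM in wt/wt. The CD45 and CD11b genes Ptprc and Itgam were at 368 CPM or more in every library, and the CD3 gene Cd3e had 0 and 0 counts in fl/fl and 0 and 2 counts in wt/wt. Itgax, the CD11c gene, was detected in spite of the gate, at 24.6 and 47.1 CPM in fl/fl, against 158 and 134 CPM in wt/wt (log2 fold change −2.02, edgeR adjusted p = 0.0197). Markers of other myeloid cells differed between the libraries. For 7 classical monocyte markers the sums were 14989 and 7548 CPM in fl/fl and 5185 and 4725 CPM in wt/wt. Most of that gap lay in Chil3 and Hp. Chil3 held 8404 and 2069 CPM in fl/fl, against 1370 and 714 CPM in wt/wt. Hp held 2478 and 1859 CPM in fl/fl, against 426 and 601 CPM in wt/wt. Of the 7, Hp and Mgst1 were called higher. Ly6c2, F13a1 and Ccr2 were not called (log2 fold changes 0.47, 0.23 and −0.23), nor were Chil3 and Vcan. Summed levels of 11 neutrophil markers were 37194 and 17143 CPM in fl/fl and 3184 and 3979 CPM in wt/wt, led by S100a9 and S100a8, with 9 of the 11 called higher, and those of 6 granulocyte precursor genes, led by Prtn3 and Elane, were 1516 and 478 CPM in fl/fl and 48.5 and 40.1 CPM in wt/wt, with all 6 called. Among 9 Kupffer cell and macrophage markers the sums were 297 and 207 CPM in fl/fl and 912 and 900 CPM in wt/wt. C1qa, C1qb and C1qc were called lower. Adgre1, at 150 and 156 CPM in fl/fl and 178 and 183 CPM in wt/wt, was not called (log2 fold change −0.24). Cd5l was not called either (1.00), and Marco had at most 21 counts in any library. The Kupffer cell genes Clec4f, Vsig4 and Timd4 had at most 15 counts in any library. Of 3 tested NK cell markers, Nkg7 and Gzma were called higher, at log2 fold changes of 3.67 and 3.10 (edgeR adjusted p = 0.0180 and 0.0135). Klrb1c was not called (0.26). Of 4 tested eosinophil and basophil markers, 1 was called higher. Xist, the RNA of X inactivation, was counted 4298 times in fl/fl library 2 and 0 times elsewhere. The sum over 4 Y-linked genes was 3455 counts in fl/fl library 1 and 1 count in fl/fl library 2, against 5207 and 6562 counts in wt/wt libraries, so that fl/fl library 2 came from a female and the other libraries from males. In bulk RNA, fewer cells of a type and less RNA per cell cannot be told apart.

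The receptors did not move together: Tlr5, the receptor for bacterial flagellin, fell in fl/fl, and the other 9 did not pass the test. The test was edgeR's quasi-likelihood F test across all 13496 genes, with p-values adjusted by the Benjamini-Hochberg method and a threshold of 0.05. It called 5.85% of all tested genes, 2.69% higher and 3.16% lower in fl/fl. With 1 of 10 receptors lower and 0 higher, the share is that of a single gene, and it is not set apart from the background. At an unadjusted p under 0.05 there were 4 receptors, Tlr5, Tlr9 and Tlr2 lower and Tlr6 higher, where 22.5% of all tested genes passed that mark, and neither DESeq2 nor limma-voom called a receptor higher. Both fl/fl libraries were below both wt/wt libraries for 4 receptors (Tlr2, Tlr3, Tlr5 and Tlr9), as for 26.3% of all tested genes, and above them for 3 (Tlr1, Tlr6 and Tlr13), as for 28.1%. Tlr4, Tlr7 and Tlr8 overlapped between the genotypes.

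**Figure D1:**
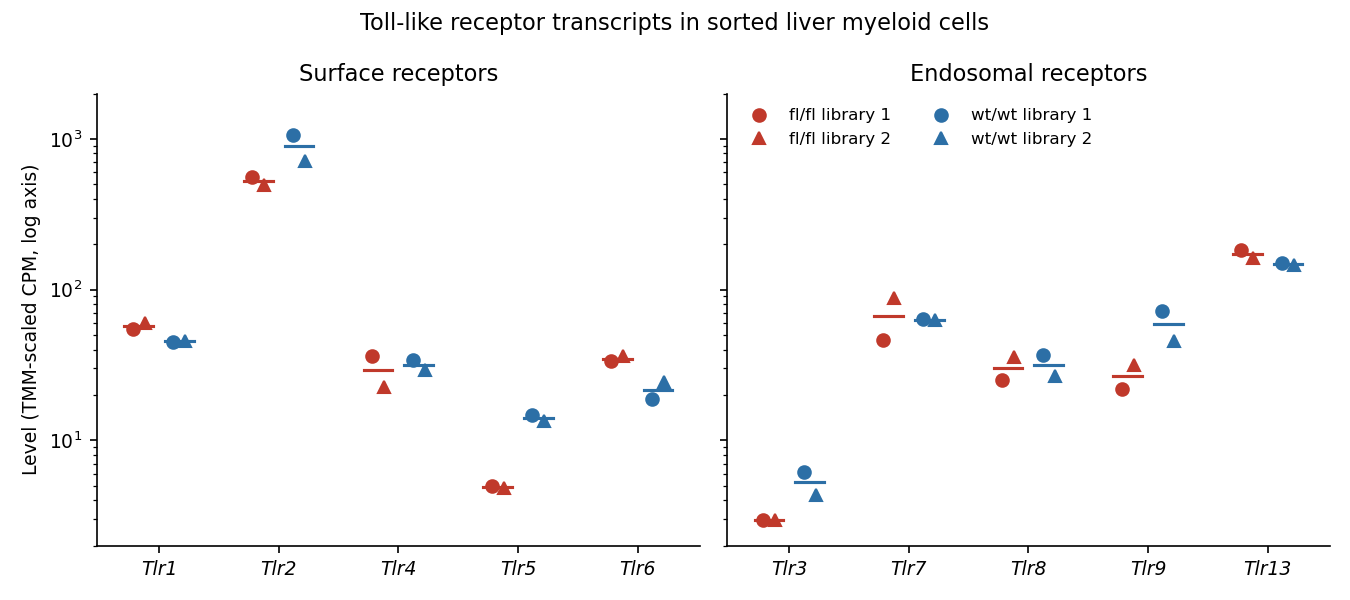
Level of each receptor transcript in each library, as TMM-scaled CPM on a log axis, with fl/fl in red to the left of wt/wt in blue; short lines are the means of 2 libraries. Tlr5 was at 4.95 and 4.85 CPM in fl/fl, below 14.8 and 13.4 CPM in wt/wt, and Tlr2 was the most abundant receptor in every library.

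Among the surface receptors, Tlr5 (ENSMUSG00000079164; GRCm38 chromosome 1, 182954788 to 182976044, plus strand) held 4.95 and 4.85 CPM in fl/fl libraries 1 and 2 (85 and 85 counts), against 14.8 and 13.4 CPM in wt/wt libraries 1 and 2 (330 and 364 counts). The libraries of each genotype lay close to each other, and the genotypes did not overlap. Means were 4.90 ± 0.07 CPM in fl/fl and 14.1 ± 1.00 CPM in wt/wt (SD, n = 2 each), and Tlr5 was thus 2.88-fold lower in fl/fl, a log2 fold change of −1.53 ± 0.26 (SE; edgeR adjusted p = 0.0266). The Tlr5 log2 fold change lay between −1.62 and −1.47 in all 14 alternatives, at adjusted p from 0.000135 to 0.282. Its call needed both wt/wt libraries, since without wt/wt library 1 or 2 the adjusted p was 0.243 or 0.137 and edgeR called 0 genes in all, at a Tlr5 log2 fold change of −1.50 or −1.59. Neutrophil and precursor markers were higher and C1q genes lower in the same fl/fl libraries. The part of cell mixture in the Tlr5 result was not tested.

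Tlr2 (ENSMUSG00000027995; chromosome 3, 83836272 to 83841767, minus strand), which binds bacterial lipoproteins as a pair with TLR1 or TLR6, held 558 and 496 CPM in fl/fl, against 1067 and 718 CPM in wt/wt. The fl/fl libraries were both lower, and the wt/wt libraries stood further apart from each other than the fl/fl libraries did. Tlr2 did not pass, at a log2 fold change of −0.76 ± 0.23 (SE; edgeR adjusted p = 0.105), with adjusted p from 0.00136 to 0.857 over the alternatives, and DESeq2 put it past the threshold (adjusted p = 0.0197).

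The partners of TLR2 lay the other way. Tlr6 (ENSMUSG00000051498; chromosome 5, 64952031 to 64960097, minus strand) held 33.4 and 36.1 CPM in fl/fl, against 18.8 and 24.2 CPM in wt/wt, without overlap (log2 fold change 0.69 ± 0.20, SE; adjusted p = 0.102, edgeR). Tlr1 (ENSMUSG00000044827; chromosome 5, 64924679 to 64933563, minus strand) held 55.1 and 59.6 CPM in fl/fl, against 44.9 and 45.8 CPM in wt/wt, a smaller step that also separated the genotypes (0.34 ± 0.16, SE; adjusted p = 0.273, edgeR). Neither passed the test in any of the 14 alternatives. Per kilobase of exon, Tlr2 was 7.27 and 5.99 times the sum of Tlr1 and Tlr6 in fl/fl, against 19.2 and 11.8 times that sum in wt/wt. This ratio was chosen after the values were seen and was not tested. It was lower in both fl/fl libraries, and the excess of Tlr2 over its partners remained in each library.

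Tlr1 and Tlr6 are neighbours on chromosome 5 that share stretches of identical sequence, which bears on how far their counts can be separated. Of the 50-base words in the Tlr1 transcripts of GENCODE M21, 13.6% also occur in Tlr6 transcripts, and 12.3% of the Tlr6 words occur in Tlr1. No other pair of the 10 receptors shares such a word. The longest identical run has 229 bases and lies within the longest open reading frame of both transcripts, at chr5:64925537-64925765 in Tlr1 and chr5:64953828-64954056 in Tlr6 (GRCm38, minus strand). It is shown because a read that falls inside it cannot be assigned to either gene:
Tlr1 and Tlr6 shared run: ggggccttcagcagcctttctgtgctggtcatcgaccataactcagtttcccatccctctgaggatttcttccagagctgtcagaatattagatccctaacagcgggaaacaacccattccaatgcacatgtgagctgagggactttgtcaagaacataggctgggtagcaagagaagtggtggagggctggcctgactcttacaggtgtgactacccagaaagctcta
How the authors counted such reads is not given in the sources used here, so the split between Tlr1 and Tlr6 is uncertain by the reads of these stretches.

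Tlr4 (ENSMUSG00000039005; chromosome 4, 66827584 to 66930284, plus strand), the receptor for lipopolysaccharide, held 36.3 and 22.6 CPM in fl/fl, against 34.0 and 29.1 CPM in wt/wt. The fl/fl libraries lay on either side of both wt/wt libraries (log2 fold change −0.10 ± 0.26, SE; adjusted p = 0.875, edgeR). The Tlr4 value was −0.52 without fl/fl library 1 and 0.21 without fl/fl library 2, so that its direction rested on which fl/fl library was kept. Cd14, which passes lipopolysaccharide to TLR4, showed the same order of libraries, at 1125 and 364 CPM in fl/fl and 742 and 730 CPM in wt/wt (0.02, edgeR adjusted p = 0.991), and without fl/fl library 1 the Cd14 log2 fold change was −1.05 (edgeR adjusted p = 0.0129).

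**Figure D2:**
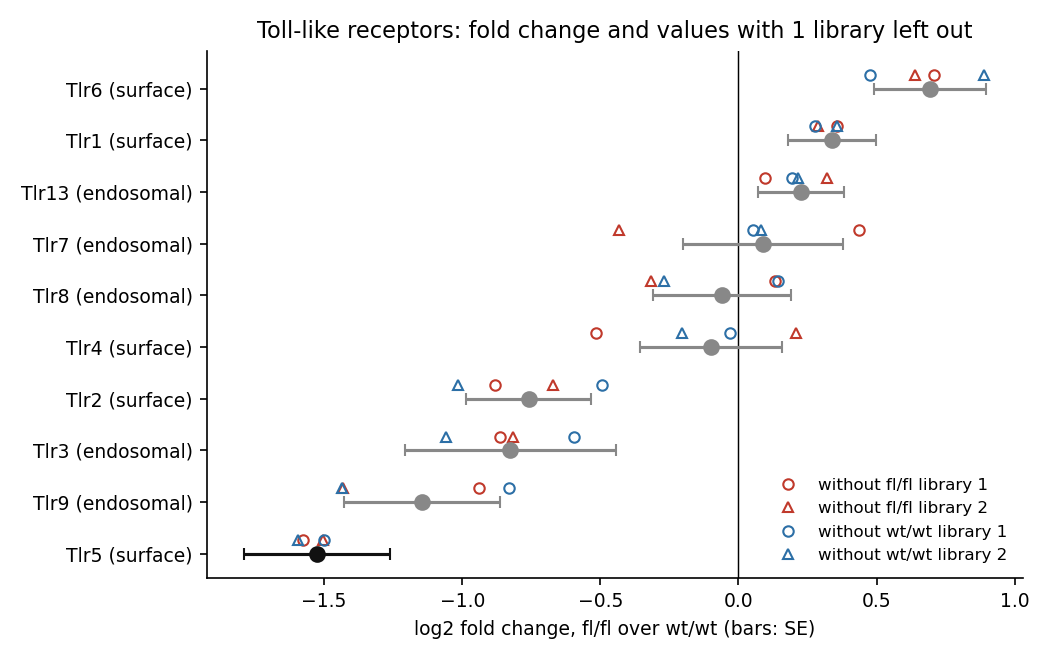
Fold change of each receptor in fl/fl over wt/wt on the log2 scale (filled points, bars are SE; black passes the adjusted threshold, grey does not), with open symbols above each row for the fits that leave out 1 library. Tlr5 stayed between −1.59 and −1.50 in these fits, while Tlr4, Tlr7 and Tlr8 fell on both sides of 0.

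Among the endosomal receptors, Tlr9 and Tlr3 were at lower CPM in both fl/fl libraries without passing the test. Tlr7 and Tlr8 had fl/fl means near their wt/wt means, with overlap, and Tlr13 was slightly higher in both fl/fl libraries without passing. Tlr9 (ENSMUSG00000045322; chromosome 9, 106222598 to 106226883, plus strand), which detects unmethylated CpG DNA, held 21.8 and 31.6 CPM in fl/fl, against 72.2 and 45.9 CPM in wt/wt. The genotypes did not overlap, yet the spread within each was wide, with the higher library 1.45 times the lower in fl/fl and 1.57 times in wt/wt. Tlr9 was at −1.15 ± 0.28 in log2 fold change (SE; edgeR adjusted p = 0.0665), just outside the threshold, with adjusted p from 7.42e-06 to 0.571 over the alternatives. Tlr9 did not pass in 7 of the 14 alternatives. It passed with the replicate number as a block (adjusted p = 0.0370, edgeR). Other settings where Tlr9 passed included library size as the only scaling (adjusted p = 0.0476), no filter (7.42e-06), DESeq2 (0.00404) and edgeR without fl/fl library 2. In these, its log2 fold changes ran from −1.43 to −1.15. The receptors called lower in these settings stand against 4.07%, 4.72%, 6.18% and 4.52% of all genes called lower in the same settings. Tlr9 did not pass with RLE size factors, limma-voom or without fl/fl library 1, where 3.19%, 3.04% and 4.18% of all genes were called lower and Tlr5 was called in each. B cells and plasmacytoid dendritic cells are known for high TLR9. Of their markers, Siglech had 0 counts and Ms4a1 at most 4 in any library, while others were detected. Pacsin1, a plasmacytoid dendritic cell marker, had 1 and 0 counts in fl/fl, against 15 and 7 counts in wt/wt, lower in fl/fl as Tlr9 was. The markers Ccr9 and Cox6a2 of the same cells had at most 7 and 3 counts in any library. Tcf4 is a factor of plasmacytoid dendritic cells that other cells also express. It held 39.1 and 73.2 CPM in fl/fl, against 86.1 and 73.8 CPM in wt/wt (−0.51, edgeR adjusted p = 0.366). Both fl/fl values of Tcf4 were below both wt/wt values, the nearest being 73.2 and 73.8 CPM. The immunoglobulin M heavy chain gene Ighm was at 71.0 and 132 CPM in fl/fl, against 128 and 141 CPM in wt/wt, and the B cell receptor gene Cd79b at 4.37 and 8.67 CPM in fl/fl, against 6.29 and 8.51 CPM in wt/wt, both with overlap. Cd79a, another B cell receptor gene, was at 1.05 and 1.37 CPM in fl/fl, against 0 and 0.774 CPM in wt/wt. It was thus higher in both fl/fl libraries (1.59, edgeR adjusted p = 0.531), with at most 24 counts in any library. The part of B cells and plasmacytoid dendritic cells in the Tlr9 values was not tested.

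Tlr3 (ENSMUSG00000031639; chromosome 8, 45395665 to 45411080, minus strand), which binds double-stranded RNA, was the receptor with the fewest counts, 51 and 52 counts in fl/fl, against 138 and 118 counts in wt/wt. These gave 2.97 and 2.97 CPM in fl/fl and 6.20 and 4.35 CPM in wt/wt, without overlap (log2 fold change −0.83 ± 0.38, SE; adjusted p = 0.267, edgeR). The exons of Tlr3 overlap a gene on the opposite strand along 7.32% of their length, and without a known strand setting such reads cannot be told apart. TLR3 is known as a receptor of cross-presenting dendritic cells. Of their markers, Xcr1 was at 0.291 and 0.457 CPM in fl/fl, against 1.12 and 1.18 CPM in wt/wt, lower in both fl/fl libraries as Tlr3 was (−1.61, edgeR adjusted p = 0.2701). Clec9a was at 0.524 and 2.68 CPM in fl/fl, against 1.48 and 1.11 CPM in wt/wt, with overlap. The part of these cells in the Tlr3 values was not tested.

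Tlr7, a receptor for single-stranded RNA, Tlr8, whose human counterpart binds such RNA as well, and Tlr13 are X-linked. Tlr7 (ENSMUSG00000044583; X chromosome, 167304929 to 167330558, minus strand) held 46.5 and 87.7 CPM in fl/fl, against 63.6 and 62.6 CPM in wt/wt, so the fl/fl libraries lay on either side of a close wt/wt pair (log2 fold change 0.09 ± 0.29, SE; adjusted p = 0.901, edgeR). Its neighbour Tlr8 (ENSMUSG00000040522; X chromosome, 167242696 to 167264329, minus strand) held 25.2 and 35.5 CPM in fl/fl, against 36.7 and 26.6 CPM in wt/wt (−0.06 ± 0.25, SE; adjusted p = 0.926, edgeR). The libraries of Tlr8 were interleaved. Tlr13 (ENSMUSG00000033777; X chromosome, 106143204 to 106160493, plus strand), a receptor for bacterial ribosomal RNA that mice have and humans lack, held 184 and 162 CPM in fl/fl, against 149 and 146 CPM in wt/wt, a small separation that did not pass (0.23 ± 0.16, SE; adjusted p = 0.457, edgeR).

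Tlr7 differed most between the fl/fl libraries, with the female library 1.88 times the male one. Without fl/fl library 1 the Tlr7 log2 fold change was 0.44, and without fl/fl library 2 it was −0.43. Tlr8 in the female library was 1.41 times its level in the male one, and Tlr13 in the male library was 1.13 times its level in the female one. Over 383 tested X-linked genes other than Xist, the median log2 ratio of fl/fl library 2 to library 1 was 0.0053. Over all tested genes it was −0.0014. Such a median does not bear on single X-linked genes such as Tlr7. The same libraries differed in marker levels, with neutrophil markers at 37194 and 17143 CPM and non-classical monocyte markers, led by Nr4a1 and Cx3cr1, at 4428 and 6308 CPM in fl/fl libraries 1 and 2. With 1 female library, sex and the marker differences cannot be told apart here.

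Per kilobase of exon, which allows genes to be compared, Tlr2 was the highest receptor and Tlr13 the second in both genotypes. Tlr2 averaged 175 ± 14.5 CPM per kb in fl/fl and 296 ± 82.1 in wt/wt, and Tlr13 40.2 ± 3.48 in fl/fl and 34.4 ± 0.51 in wt/wt (SD, n = 2 each). Below them in fl/fl came Tlr1 (17.1), Tlr7 (16.4), Tlr6 (9.33), Tlr8 (8.46), Tlr9 (7.67) and Tlr4 (5.30 CPM per kb). Of these, Tlr1 and Tlr7 overlapped, and so did each neighbouring pair from Tlr6 to Tlr4. In wt/wt the order was Tlr9 (16.98), Tlr7 (15.5), Tlr1 (13.5), Tlr8 (8.82), Tlr6 (5.77) and Tlr4 (5.68), with overlap between Tlr9 and Tlr7 and between Tlr6 and Tlr4. In fl/fl 6 receptors thus stood above Tlr9, against 2 in wt/wt. Tlr5 (1.02 in fl/fl and 2.95 in wt/wt) and Tlr3 (0.57 in fl/fl and 1.01 in wt/wt) were last in both genotypes, and were separated from each other and from Tlr4.

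The median log2 fold change was −0.10 for the 5 surface receptors and −0.06 for the 5 endosomal ones, beside 0.02 over all tested genes. These medians lay close to each other only with both fl/fl libraries kept. Without fl/fl library 1 the median was −0.52 for the surface set and 0.10 for the endosomal set. Without fl/fl library 2 it was 0.21 for the surface set and −0.43 for the endosomal set, so the order of the medians turned round. A median of 5 is the value of 1 gene. The surface median was that of Tlr4 in all these fits. The endosomal one was that of Tlr8 with all libraries, of Tlr13 without fl/fl library 1 and of Tlr7 without fl/fl library 2. The turn is thus that of single receptors and not of whole sets. Of the surface receptors 1 was called lower and of the endosomal ones 0 in edgeR, where Tlr9 alone had an unadjusted p under 0.05; DESeq2 called 1 endosomal receptor and limma-voom 0. Within each set some members were higher and some lower, with 2 positive and 3 negative values in both.

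In summed level the sets differed through Tlr2. The 5 surface receptors together held 218 and 197 CPM per kb in fl/fl, against 382 and 266 CPM per kb in wt/wt, with no overlap. Without Tlr2 the surface sum was 33.0 and 32.6 CPM per kb in fl/fl and 27.7 and 28.2 CPM per kb in wt/wt, so that the order of the genotypes turned round. The endosomal sum was 67.9 and 78.7 CPM per kb in fl/fl and 82.45 and 70.8 CPM per kb in wt/wt, with overlapping genotypes. Tlr2 made up 64.7% and 59.7% of the summed receptor level in fl/fl, against 76.3% and 70.6% of it in wt/wt, and Tlr9 made up 9.22% and 11.5% of the endosomal sum in fl/fl, against 25.2% and 18.7% of it in wt/wt. These sums and shares describe the libraries and were not tested.

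**Figure D3:**
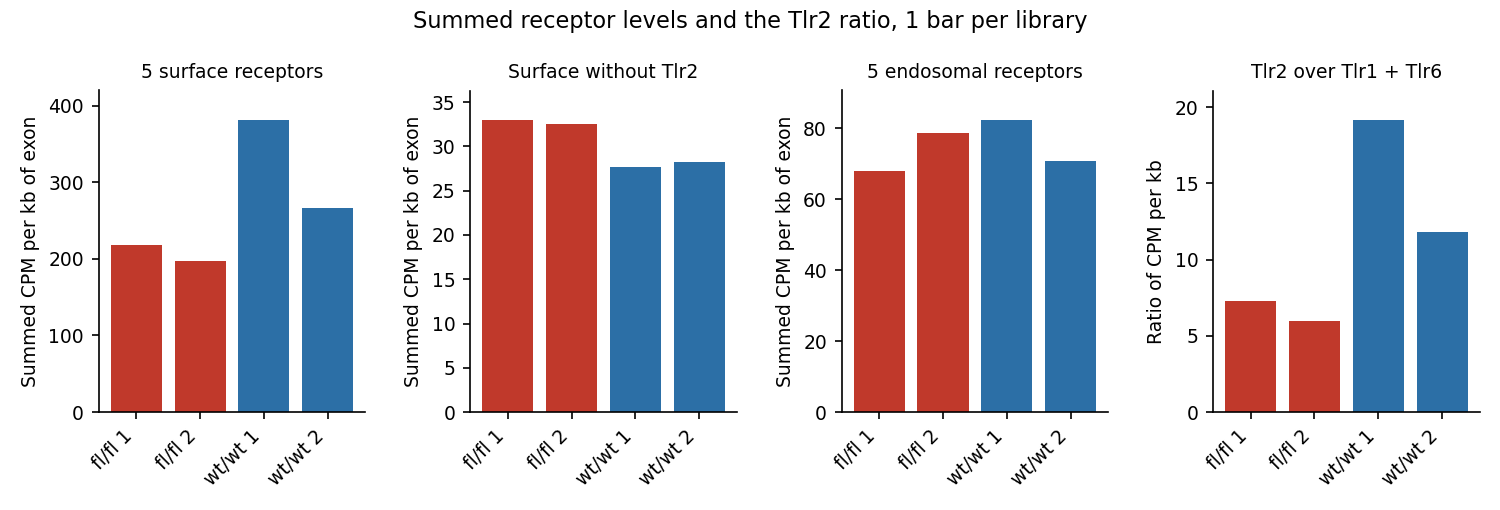
Summed level of the surface receptors, of the surface receptors without Tlr2 and of the endosomal receptors in CPM per kb of exon, and the ratio of Tlr2 to Tlr1 plus Tlr6, with 1 bar per library, fl/fl in red and wt/wt in blue. The surface sum was 218 and 197 in fl/fl, below 382 and 266 in wt/wt, while the endosomal sums overlapped.

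The DNA before the start sites is shown for Tlr5, the receptor that passed the test, and for Tlr9, Tlr2 and Tlr6, the others with an unadjusted p under 0.05. Sequences are from RefSeq on GRCm38.p6, 5′ to 3′ on the strand of the gene, cut to the part before both the RefSeq and the GENCODE M21 start, which leaves 250 bases for Tlr5 (chr1:182954538-182954787, plus strand), 250 for Tlr9 (chr9:106222348-106222597, plus strand), 91 for Tlr2 (chr3:83841768-83841858, minus strand) and 201 for Tlr6 (chr5:64960098-64960298, minus strand). Capitals mark matches to 5 short motifs, described after the sequences.
Tlr5: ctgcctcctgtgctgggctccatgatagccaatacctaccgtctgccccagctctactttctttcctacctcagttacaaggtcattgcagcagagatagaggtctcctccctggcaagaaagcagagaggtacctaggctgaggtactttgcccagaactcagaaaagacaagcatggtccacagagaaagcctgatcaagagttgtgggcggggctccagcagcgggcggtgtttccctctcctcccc
Tlr9: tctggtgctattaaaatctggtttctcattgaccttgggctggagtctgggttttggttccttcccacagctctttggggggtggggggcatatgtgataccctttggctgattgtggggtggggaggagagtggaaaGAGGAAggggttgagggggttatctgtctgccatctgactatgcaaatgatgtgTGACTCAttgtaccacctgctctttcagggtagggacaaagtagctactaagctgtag
Tlr2: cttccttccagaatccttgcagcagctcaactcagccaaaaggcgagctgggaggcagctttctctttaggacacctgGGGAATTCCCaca
Tlr6: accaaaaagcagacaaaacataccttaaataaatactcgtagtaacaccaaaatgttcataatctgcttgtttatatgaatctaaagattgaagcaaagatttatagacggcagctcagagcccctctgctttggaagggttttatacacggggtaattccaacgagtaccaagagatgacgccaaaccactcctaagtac
The motifs, searched on both strands of the 250 bases before each start, were STAT (TTCNNNGAA), kappa-B (GGG, then NNTTN, then CC), PU.1 (GAGGAA), AP-1 (TGANTCA) and interferon response (GAAA, then NN, then GAAA); no matches of different motifs overlapped. In the windows of the 8 receptors that the table holds (Tlr4 and Tlr7 are not among them), STAT was found in 2, kappa-B in 2, PU.1 in 4, AP-1 in 1 and interferon response in 1. Among 32851 windows of all genes the shares were 7.02%, 4.11%, 23.3%, 6.75% and 2.98% in that order. The units differ, since these shares are per window and the receptor counts per gene. Tlr1 and Tlr6 have 2 windows each and were counted if either held the motif. The capitals in Tlr9 are a PU.1 and an AP-1 match, and those in Tlr2 are a kappa-B match. The windows of Tlr5 and the Tlr6 window shown hold none of these letters, and a second Tlr6 start, inside the GENCODE gene, has 2 interferon response matches.

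Of 72 other tested genes of the pathway (the remaining mouse receptors, adaptors, co-receptors, trafficking proteins, kinases, transcription factors, inhibitors and targets), 4 passed the test in edgeR: Lbp was higher, and Rab7b, Irak2 and Cxcl10 were lower. That share, 5.56%, is near the 5.85% of all tested genes. Lbp, the lipopolysaccharide-binding protein that loads Cd14, held 63.0 and 26.3 CPM in fl/fl, against 6.15 and 6.23 CPM in wt/wt (log2 fold change 2.85 ± 0.41, SE; adjusted p = 0.0191, edgeR). It was higher in fl/fl library 1, as the neutrophil markers were, and its log2 fold change was 2.05 without that library. Rab7b, a late endosomal GTPase known to lower TLR4 and TLR9 levels, held 18.8 and 13.4 CPM in fl/fl, against 66.6 and 41.2 CPM in wt/wt (−1.75 ± 0.29, SE; adjusted p = 0.0243, edgeR). Irak2, a kinase that sustains signalling downstream of MyD88, held 81.1 and 77.6 CPM in fl/fl, against 211 and 171 CPM in wt/wt (−1.27 ± 0.17, SE; adjusted p = 0.0163, edgeR). Cxcl10, a chemokine gene induced through TRIF and interferon, held 185 and 209 CPM in fl/fl, against 637 and 347 CPM in wt/wt (−1.32 ± 0.29, SE; adjusted p = 0.0487, edgeR). Without wt/wt library 1 or 2 edgeR called no gene at all, so those fits cannot tell whether these 4 calls hold. The call of Cxcl10 ended in edgeR without fl/fl library 1, at a Cxcl10 log2 fold change of −1.27. With a library left out, in edgeR or DESeq2, log2 fold changes lay between 2.05 and 3.36 for Lbp and between −2.08 and −1.37 for Rab7b. They lay between −1.44 and −1.12 for Irak2 and between −1.72 and −0.84 for Cxcl10.

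Adaptors did not pass. Myd88, used by all these receptors but TLR3, held 290 and 288 CPM in fl/fl, against 182 and 194 CPM in wt/wt (log2 fold change 0.62, adjusted p = 0.0662, edgeR; 0.00920 in DESeq2), and 11.3% of its exon length lies over an opposite-strand gene. Ticam1, the gene of TRIF, held 26.03 and 24.1 CPM in fl/fl, against 37.8 and 34.3 CPM in wt/wt (−0.52, adjusted p = 0.143, edgeR). Tirap, which bridges TLR2 and TLR4 to MyD88, held 26.1 and 19.8 CPM in fl/fl, against 20.2 and 16.1 CPM in wt/wt, with overlap. Of 4 tested adaptors edgeR called 0 and DESeq2 called 1, and the median was 0.19. An unadjusted p under 0.05 was found for 2 of the 4 in edgeR, and for 22.5% of all tested genes.

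Of 6 surface co-receptors and helpers, 1 was called higher and 0 lower (median −0.25). Ly96, the gene of MD-2, which forms the TLR4 complex, held 5.59 and 8.45 CPM in fl/fl, against 11.6 and 8.95 CPM in wt/wt (log2 fold change −0.55, adjusted p = 0.379, edgeR). Cd36, a scavenger receptor that assists TLR2 and TLR6, held 2.33 and 7.65 CPM in fl/fl, against 14.1 and 9.95 CPM in wt/wt (−1.26, adjusted p = 0.226, edgeR). The Cd36 log2 fold change was −0.68 without fl/fl library 1 and −2.35 without fl/fl library 2, where it passed (edgeR adjusted p = 0.00551). Of 6 endosomal trafficking genes, 1 was called lower (median −0.09). Unc93b1, the chaperone that carries nucleic acid receptors to endosomes, held 900 and 1030 CPM in fl/fl, against 898 and 1071 CPM in wt/wt, an overlap with a log2 fold change of −0.03. The folding factors Cnpy3 and Hsp90b1 were at −0.15 and 0.15 on the same scale, at adjusted p = 0.620 and 0.683 (edgeR).

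Further down the pathway most values were small. The counts below stand beside 22.5% of all tested genes at an unadjusted p under 0.05 in edgeR and 6.18% called lower in DESeq2. Of 16 kinases and ubiquitin ligases, 1 was called lower and 0 higher (median −0.03). Traf6, the ubiquitin ligase after the IRAK kinases, was at −0.61 (adjusted p = 0.0901, edgeR) and Irak4 at 0.45 (adjusted p = 0.142, edgeR). Of 8 transcription factors edgeR and limma-voom called 0 and DESeq2 called 2 lower, while 2 had an unadjusted p under 0.05 (median −0.13): the NF-kappa-B subunit Rel was at −0.91 and the interferon factors Irf7 and Irf5 at −0.62 and −0.33. Of 14 inhibitors edgeR called 0 and DESeq2 called 1 lower, while 4 had an unadjusted p under 0.05 (median −0.14). Zc3h12a, an endonuclease for cytokine mRNA, was at −0.83, Tnip1 at −0.41 and the decoy-like receptor gene Sigirr at 1.06 in log2 fold change. Of 16 tested target genes 1 was called lower and 0 higher, with 4 lower and 1 higher at an unadjusted p under 0.05 (median −0.52, and 0.02 without wt/wt library 1). With a library left out, the median of the target genes lay between −0.94 and 0.06. The number of target genes called lower stayed at 1 in 4 of the 14 alternatives. DESeq2 on all libraries called 3 lower and 1 higher. The chemokine gene Ccl5 was at −1.47 (edgeR adjusted p = 0.0847). It passed in DESeq2 and, in edgeR, with no filter and without fl/fl library 2, and the Ccl5 log2 fold change lay between −1.93 and −0.87 over the alternatives. The interleukin-1 alpha gene Il1a was at −2.80 (edgeR adjusted p = 0.0975). It passed in edgeR with no filter and without either fl/fl library, at an Il1a log2 fold change of −5.06 without fl/fl library 1 and −1.96 without fl/fl library 2. Tlr11 and Tlr12, the remaining receptor genes of the mouse, had at most 48 and 35 counts in a library and overlapping genotypes.

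**Figure D4:**
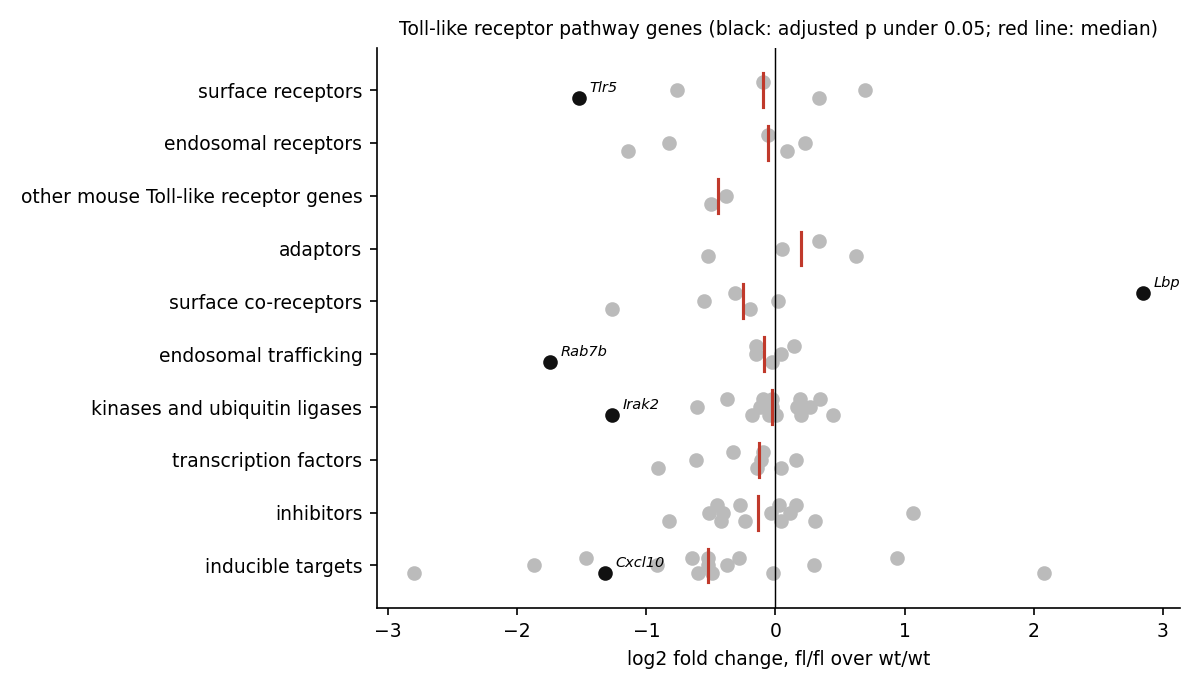
Log2 fold change in fl/fl over wt/wt of each tested gene, by list, with the receptors in the upper rows; black points pass the adjusted threshold and are named, grey points do not, and red lines are list medians. The called genes are Tlr5, Rab7b, Irak2 and Cxcl10 below 0 and Lbp above 0, at 2.85.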

How the data were processed

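RNA of sorted liver myeloid cells was sequenced in 2 fl/fl and 2 wt/wt libraries, grouped by the genotype in the labels. The authors deposited 1 table of raw counts per Ensembl gene. FastQC 0.11.5, Trimmomatic 0.33, STAR 2.5.0 and the GRCm38 build are named in the submitters' processing notes; which counter, strand option and gene models were used is not given in the sources used here. Gene symbols, coordinates and exon lengths were taken from GENCODE M21 (GRCm38), which named 55227 of 55487 identifiers.

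Genes were filtered with filterByExpr (minimum count 10), scaled by TMM and compared with edgeR 4.0.16 in R 4.3.3, by the quasi-likelihood F test without covariates. Positive log2 fold changes mean higher in fl/fl (prior count 0.125), and each SE was obtained by dividing the size of the log2 fold change by the root of its F statistic. An exact permutation test cannot go below p = 0.333 with 2 libraries per genotype and was not used. In a simulation of the fl/fl against wt/wt fit over 13082 genes, 44% of 50 genes changed by 1 on the log2 scale were recovered, and 100% of 50 changed by 2. The changed genes were drawn from those at or above the median level, so recovery of less abundant genes is not known. Counts were drawn with a dispersion that follows the level of a gene and not its own spread. The fit was repeated with no filter, with RLE size factors, with library size only, with DESeq2 1.42.0, with limma-voom (limma 3.58.1), with the replicate number as a block and with each library left out, with DESeq2 on 3 libraries added after the data were seen (a lone library is then assumed to vary like the other genotype). The receptors and gene lists were chosen with earlier results of these data known. Beside the receptors, genes were picked by rule. They were Il10ra, Cd14, Ly96, Unc93b1, Myd88, Tirap and Ticam1, the called or lowest-p genes of each pathway list, and the most expressed markers of each cell type. The markers so picked for conventional dendritic cells, T cells, eosinophils and basophils, endothelial cells and hepatocytes are not given here. Other markers were named after their values were seen.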

Additional observations from a re-analysis of the deposited data

How the results depend on the processing

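No receptor was called higher in any of the 14 alternatives. The number of receptors called lower was 3 in DESeq2 and with no filter, where 2 were surface receptors and 1 endosomal, and 2 with library size only and with the replicate block, where 1 was endosomal. Over the fits with a library left out, receptors called lower numbered 0 to 2, of which surface receptors 0 to 2 and endosomal receptors 0 to 1, and those called higher 0 in each. Over all genes, 784 were higher and 834 lower in DESeq2, and 1017 and 1071 with no filter, where 22696 genes were tested. With a library left out, edgeR called 0 to 811 genes higher and 0 to 666 lower. Without wt/wt library 1 or 2 edgeR called 0, although 1576 and 2333 had an unadjusted p under 0.05; DESeq2 called 274 and 385 higher and 222 and 399 lower. DESeq2 called 730 higher and 671 lower without fl/fl library 2, and 663 lower without fl/fl library 1. The cause was not tested. With the replicate block, 602 genes were higher and 613 lower, and Tlr9 passed (adjusted p = 0.0370). Same-numbered libraries did not deviate together (correlation 0.02 across genes), so the numbers are not taken as pairs.

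With a library left out, direction turned in edgeR for Tlr4 (−0.52 to 0.21), Tlr7 (−0.43 to 0.44), Tlr8 (−0.32 to 0.14), Tlr11 (−0.73 to 0.0050), Tlr12 (Tlr12 log2 fold change −1.30 to 0.53), Cd14 (−1.05 to 0.62) and Unc93b1 (−0.20 to 0.11). In DESeq2 the turned values were 0.21 and 0.0043 for Tlr4, −0.43 for Tlr7, 0.14 and 0.17 for Tlr8, 0.038 for Tlr11, 0.56 for Tlr12, −1.05 and −0.013 for Cd14, and 0.036 and 0.079 for Unc93b1. The Cd14 log2 fold change, 0.02, was −0.017 with library size only and −0.20 with limma-voom and with the replicate block. The other receptors kept their direction in all 14 alternatives. Tlr3 rests on 51 to 138 counts in a library, Tlr11 on 19 to 48 and Tlr12 on 7 to 35.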

Other observations

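Microbial sensors outside the receptor family were compared in the same fit; both lists were chosen after the files were at hand, and their genes were named after their values were seen. Of 10 genes of cytosolic bacterial sensing, 1 was called lower in fl/fl and 0 higher, where 3.16% of all tested genes were called lower, with a median log2 fold change of −0.33. It was Naip2, the sensor of the rod protein of bacterial secretion systems, with 83.4 and 71.3 CPM in fl/fl and 163 and 144 CPM in wt/wt (−0.99 ± 0.17, SE; adjusted p = 0.0252, edgeR). The cytosolic flagellin sensors Naip5 and Naip6 did not pass: Naip5 was at 144 and 198 CPM in fl/fl, against 227 and 194 CPM in wt/wt (−0.30), and Naip6 at 70.5 and 108 CPM in fl/fl, against 121 and 108 CPM in wt/wt (−0.36). Their partner Nlrc4 was at −0.41 and the inflammasome gene Nlrp3 at −0.53. The Naip genes are close copies of each other, so reads may have been split between them. Casp1 and Casp4, the inflammatory caspases, did not pass either: Casp1 was at 105 and 113 CPM in fl/fl, against 86.7 and 67.9 CPM in wt/wt, and Casp4 at 82.5 and 81.6 CPM in fl/fl, against 64.7 and 51.4 CPM in wt/wt (0.50 each).

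Of 8 genes of cytosolic nucleic acid sensing, 0 were called in edgeR, with 5 lower at an unadjusted p under 0.05, a mark that 22.5% of all tested genes passed in either direction, and the median was −0.54. Cgas, the DNA sensor that makes cyclic GMP-AMP, held 12.0 and 12.3 CPM in fl/fl, against 25.9 and 21.4 CPM in wt/wt (−0.96, adjusted p = 0.0530, edgeR). The RNA sensors Ddx58 and Ifih1 and their adaptor Mavs were at −0.61, −0.62 and −0.76, with both fl/fl libraries below both wt/wt libraries for each, whereas Tmem173, the gene of STING, was at 0.08 and overlapped.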
